A study of Oryza sativa with 6 samples.

Results

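Sucrose transporters of the SUT family carry sucrose together with protons across membranes. In plants they load sucrose into the phloem, retrieve it along the way, unload it in growing organs and empty vacuolar stores. The rice family has 5 members, SUT1 to SUT5, and all 5 were found among the 55801 loci of the count files by their MSU locus identifiers. Of these, 4 had at least 1 read, and 3 had enough reads to be tested for a difference between the end of the night and the end of the day. The members were taken by identifier as a whole family, although earlier results of these data were known at that point.

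The plants were rice (Oryza sativa) of the genotype Nipponbare, kept in chambers on Chu's medium under 12 h light and 12 h dark cycles at 28 °C. Harvest 30 min ahead of lights on gave the AM group (3 libraries), and harvest 30 min ahead of lights off the PM group (3 libraries). Both groups share genotype, medium and temperature, and differ only in the time of harvest as far as the labels state. The stated material was the whole seedling, although the organ is also given as panicle, and RNA was sequenced from directional libraries to compare expression and splicing at the 2 times and across mapping genomes. The labels do not say whether replicates came from separate plants, so the p-values cover the spread between these libraries only, which may be technical. In whole seedlings, fewer cells of a type and less RNA per cell cannot be told apart.

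Library totals ran from 13 M to 66.7 M gene counts. Levels are CPM (read counts scaled to a common library size) after TMM scaling, which sets libraries so that most loci do not shift as a group. The scaling matters here, because the median PM over AM difference of the 20548 tested loci was −0.01 log2 units with TMM and 0.84 with library totals alone. Changes are given relative to that median. Summed green-leaf markers ran from 48220 to 71040 CPM in AM and from 2363 to 3100 CPM in PM. Of 10 floral organ markers, 8 had reads, 5 had enough to be tested, and MADS8 and MADS13 had none in any library. MADS6 and MADS7 had 1 count each, both in AM replicate 2. The floral sums were 6.89 to 9.18 CPM in AM and 4.43 to 5.66 CPM in PM. Of 5 root markers, RCc3, LSI2 and CRL1 had no reads in any library, and the sum ran from 24.9 to 32.5 CPM in AM and from 7.99 to 9.17 CPM in PM. Of 6 anther and pollen markers, 5 had reads, 4 had enough to be tested and MADS63 had none. The anther and pollen sums were 5.22 to 11.6 CPM in AM and 3.33 to 4.62 CPM in PM. The sums of all 4 marker lists lay higher in AM, without overlap, and the groups did not overlap at 64.1% of all tested loci. Within the root list the HKT2;1 values did overlap. Single markers went both ways: MADS62 and MADS16, the largest parts of the anther and floral sums in AM, were at log2 −4.27 and −1.98, while UDT1 (2.87) and MADS58 (1.69) were higher in PM. CYP703A3 had 0, 1 and 1 counts in AM replicates 1, 2 and 3 and 35, 11 and 46 in PM replicates 1, 2 and 3. The part of these markers in the SUT values was not tested.

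Of the 3 SUT genes tested, 2 were lower in PM, 0 were higher and 1 did not pass the test. SUT2 and SUT1 were each about as far apart between the groups, at log2 −1.18 and −1.08, but SUT1 rested largely on a single AM library. SUT4 was at −0.32 and did not pass. Among all tested loci 55.9% were called in either direction and 28% were called lower in PM, and the median absolute log2 fold change was 0.85. A call in 2 of 3 genes is thus near what all loci showed. With library totals alone none of the 3 SUT genes was called in edgeR (unadjusted p under 0.05 in 0 of 3), while 54.5% of tested loci were called higher and 13.5% lower. The absolute fold change exceeded that of 62.0% of the tested loci for SUT2, 58.6% for SUT1 and 22.1% for SUT4.

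SUT2 (LOC_Os12g44380) encodes the family member of the vacuolar membrane, which moves sucrose from the vacuole to the cytosol. It had 1178, 2807 and 2696 counts in AM replicates 1, 2 and 3, or 67.9, 64.9 and 91.5 CPM. In PM replicates 1, 2 and 3 it had 898, 657 and 1613 counts, or 31.9, 37.8 and 29.4 CPM. All AM libraries lay above all PM libraries, and AM replicate 3 was the highest of the 6. Means were 74.8 ± 14.6 CPM in AM and 33.1 ± 4.27 CPM in PM (SD, n = 3), which was 2.27-fold more in AM by the fit. On the log2 scale, PM against AM came to −1.18 (SE 0.19, 95% interval −1.61 to −0.75; quasi-likelihood test of edgeR, adjusted p = 0.000807). Groups did not overlap at 64.1% of all tested loci. The call stood without any 1 library, with log2 fold changes from −1.28 to −1.01. With library totals alone the log2 fold change was −0.35 (edgeR adjusted p = 0.217), and the CPM from totals overlapped, at 42.1 to 74.7 in AM and 38.7 to 50.6 in PM.

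SUT1 (LOC_Os03g07480) encodes a plasma membrane sucrose and proton symporter of the phloem, known from germinating seedlings, leaves and filling grain. Counts were 683, 1709 and 3190 in AM replicates 1, 2 and 3, which came to 39.4, 39.5 and 108 CPM. In PM replicates 1, 2 and 3 the counts were 948, 357 and 1869, or 33.7, 20.5 and 34.1 CPM. The groups did not overlap, but AM replicates 1 and 2 lay just above PM replicates 1 and 3, and AM replicate 3 stood far above all others. Means were 62.4 ± 39.7 CPM in AM and 29.5 ± 7.74 CPM in PM (SD, n = 3). The log2 fold change was −1.08 (SE 0.41, 95% interval −2.01 to −0.15), with an edgeR adjusted p of 0.0494, just inside the threshold of 0.05.

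The size of the SUT1 difference depended on AM replicate 3. SUT1 stood 1.46 log2 units higher there than in the mean of AM replicates 1 and 2, and 3.37% of tested loci stood as high or higher by this measure. SUT2 and SUT4 stood 0.46 and 0.47 higher there. Without AM replicate 3 the mean AM level of SUT1 was 39.4 CPM, the log2 fold change was −0.41, and the call ended (edgeR adjusted p = 0.164). The call also ended without PM replicate 1 (−1.17, adjusted p = 0.0881), PM replicate 2 (−0.87, adjusted p = 0.14) or PM replicate 3 (−1.20, adjusted p = 0.0715), all by edgeR. It remained without AM replicate 1 (−1.31) or AM replicate 2 (−1.33). Of 14 alternative settings, 8 ended the call, and the adjusted p ranged from 0.0113 with DESeq2 to 0.567 with library totals in edgeR. SUT1 was at −0.28 with library totals alone.

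**Figure D1:**
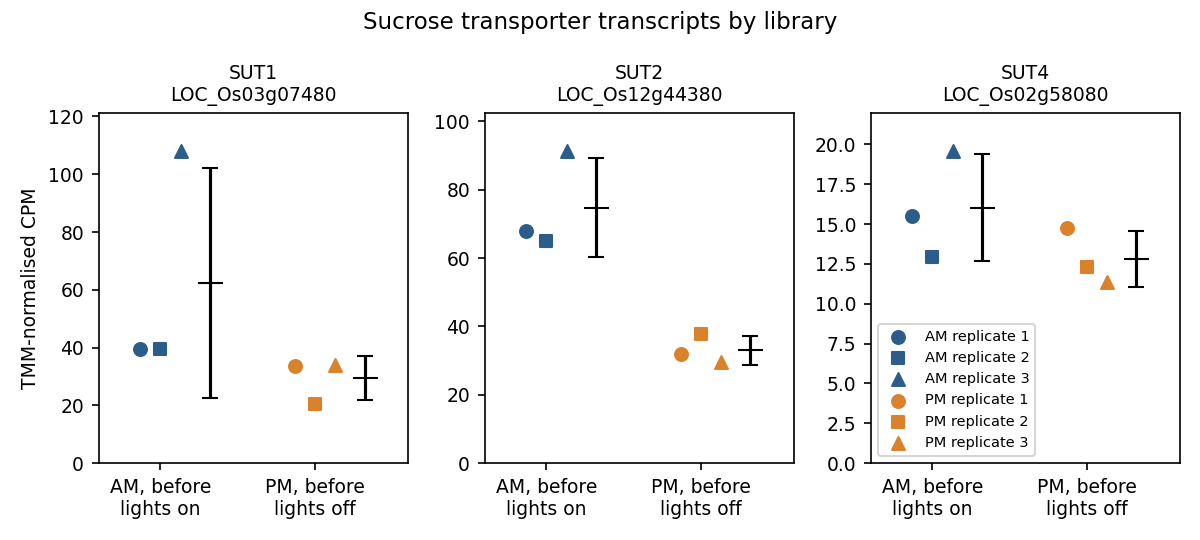
TMM-normalised CPM (vertical axes, each from 0) of SUT1, SUT2 and SUT4 in the 3 AM and 3 PM libraries, with the group mean and SD in black. SUT2 separates the groups in every library, SUT1 owes its wide AM spread to AM replicate 3 at 108 CPM, and the SUT4 groups overlap.

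SUT4 (LOC_Os02g58080), from the branch of the family that holds Arabidopsis SUC3, had the smallest fold change of the tested members under TMM scaling. Its counts in AM replicates 1, 2 and 3 were 269, 560 and 578, or 15.5, 12.9 and 19.6 CPM. In PM replicates 1, 2 and 3 they were 415, 214 and 623, or 14.8, 12.3 and 11.4 CPM. The groups overlapped, since AM replicate 2 lay below PM replicate 1. Means were 16.0 ± 3.36 CPM in AM and 12.8 ± 1.75 CPM in PM (SD, n = 3). The log2 fold change of −0.32 (SE 0.21, edgeR adjusted p = 0.22) did not pass, and its 95% interval ran from −0.80 to 0.16, which overlaps the end of the SUT2 interval at −0.75. With library totals alone the value changed sign to 0.50 (edgeR adjusted p = 0.116).

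SUT3 (LOC_Os10g26470), whose transcripts are known mainly from pollen, had 0 counts in all 6 libraries. A count of 0 allows up to 3 counts, which is 0.0548 to 0.173 CPM depending on the library. SUT5 (LOC_Os02g36700), a transporter with high affinity for sucrose when expressed in frog oocytes, had 0, 1 and 3 counts in AM replicates 1, 2 and 3 and 0, 0 and 1 in PM replicates 1, 2 and 3. No library exceeded 3 counts for SUT5, so no fold is given, and neither gene was tested. A difference in these genes was not detectable at this depth. Only reads aligned to 1 place seem to have entered the counts, since the files list the others apart, so reads shared by near-identical sequences would be missing from any member.

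The make-up of the SUT reads within a library does not depend on scaling between libraries. Read shares are not corrected for gene length, so they compare times of day for 1 gene and not genes with each other. SUT reads of all members numbered 2130, 5077 and 6467 in AM replicates 1, 2 and 3 and 2261, 1228 and 4106 in PM replicates 1, 2 and 3. SUT4 took 12.6%, 11.03% and 8.94% of them in AM replicates 1, 2 and 3. In PM replicates 1, 2 and 3 it took 18.4%, 17.4% and 15.2%. Every PM share lay above every AM share, and the exact (Clopper-Pearson) 95% intervals of the nearest pair, 11.3% to 14.1% in AM replicate 1 and 14.1% to 16.3% in PM replicate 3, just met. These intervals cover counting error only. By level the groups did not overlap at 64.1% of all tested loci, and no such figure was computed for shares. A share also depends on the reads of the other members, so a higher SUT4 share is not a higher SUT4 level. That level was at log2 −0.32 under TMM scaling and was not called. The mean SUT4 share was 10.9% ± 1.85 in AM and 17.0% ± 1.64 in PM (SD, n = 3).

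The SUT1 and SUT2 shares varied more among libraries of 1 group than between the groups. SUT1 took 32.1%, 33.7% and 49.3% of SUT reads in AM replicates 1, 2 and 3, and 41.9%, 29.1% and 45.5% in PM replicates 1, 2 and 3. SUT2 took 55.3%, 55.3% and 41.7% in AM and 39.7%, 53.5% and 39.3% in PM, in the same order of replicates. The groups overlapped for both genes, and AM replicate 3 and PM replicate 2 were the libraries that resembled the other group. Mean shares were 38.3% ± 9.54 in AM and 38.8% ± 8.65 in PM for SUT1 (SD, n = 3). For SUT2 they were 50.8% ± 7.86 and 44.2% ± 8.09 (SD, n = 3).

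**Figure D2:**
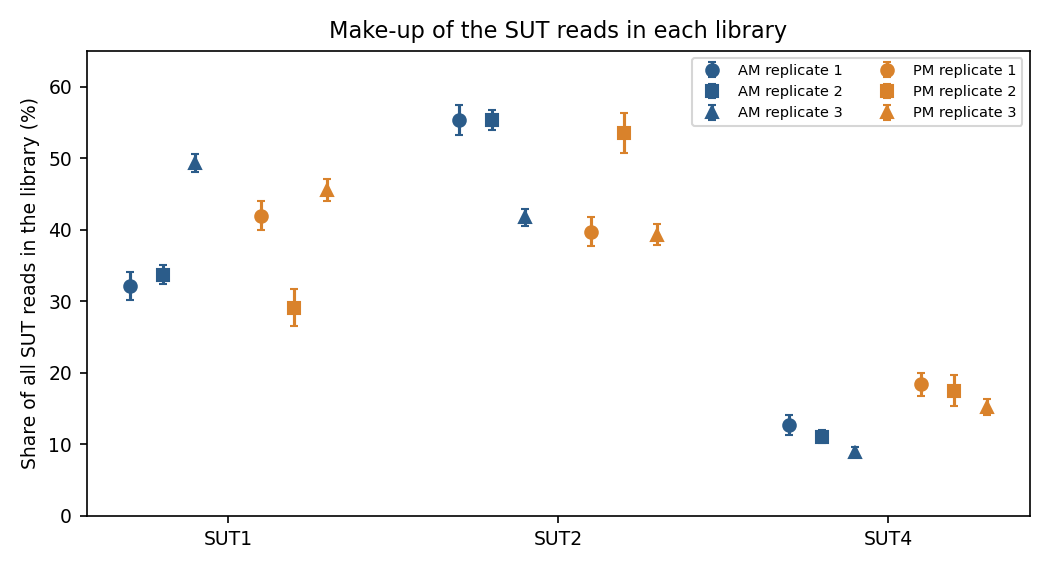
Share of all SUT reads (vertical axis, percent) taken by SUT1, SUT2 and SUT4 in each of the 6 libraries; bars are exact 95% binomial intervals for counting error. The SUT4 shares of 15.2% to 18.4% in PM lie above those of 8.94% to 12.6% in AM, while the SUT1 and SUT2 shares of the groups overlap.

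Ratios of reads between members in the same library gave a test of whether the members moved apart; this test was chosen with the values known. SUT4 reads per SUT2 read were 0.228, 0.199 and 0.214 in AM replicates 1, 2 and 3, and 0.462, 0.326 and 0.386 in PM replicates 1, 2 and 3. The groups did not overlap, and the mean log2 ratio was 0.86 higher in PM, from −2.23 ± 0.10 to −1.37 ± 0.25 (SD, n = 3). SUT2 levels alone did not overlap either, as at 64.1% of all tested loci, so this ratio is not separate from the SUT2 difference. How often ratios of other gene pairs part the groups was not computed. The exact 2-sided permutation test gave p = 0.1, the smallest that 3 against 3 libraries allow, so this test cannot reach 0.05 here (adjusted over the 3 ratios, p = 0.3). The SUT4 over SUT1 ratio was 0.63 log2 units higher in PM and overlapped (exact permutation p = 0.2, adjusted p = 0.3). The SUT2 over SUT1 ratio differed by −0.22 and overlapped (exact permutation p = 1, adjusted p = 1). Without AM replicate 3 these 3 differences were 0.86, 0.31 and −0.55.

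The plot of fold changes by setting sets the 3 genes side by side. SUT2 was called in 13 of 14 alternative settings, SUT1 in 6 and SUT4 in 0, and library totals alone moved all 3 values upward.

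**Figure D3:**
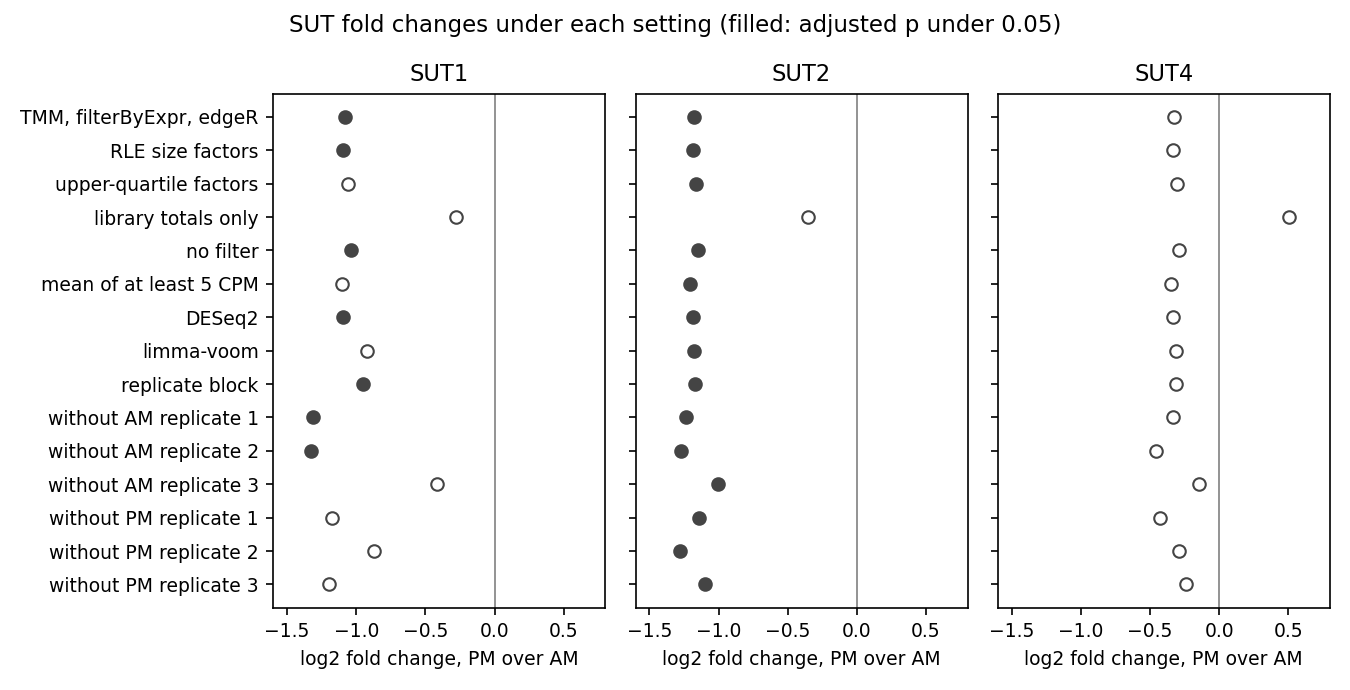
Log2 fold change of PM over AM (horizontal axis) for SUT1, SUT2 and SUT4 under the reported fit and 14 alternatives (vertical axis); filled points passed an adjusted p of 0.05. SUT2 stays between −1.28 and −1.01 when any 1 library is left out, SUT1 moves to −0.41 without AM replicate 3, and SUT4 lies above 0 only with library totals.

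The transporters work beside enzymes that make and split sucrose, exporters that release it and pumps that supply the proton gradient. Of 31 other sucrose genes listed, 23 had enough reads to be tested; 3 were higher and 4 lower in PM, 16 did not pass, and the median log2 fold change was 0.00. This is 7 of 23 called, against 55.9% of all tested loci. Scaled by library totals alone, 13 of the 23 were higher and 4 lower, where 54.5% of all tested loci were higher and 13.5% lower. Without AM replicate 3, 6 were higher and 5 lower. Over all loci, 6061 were higher and 5800 lower in that fit, against 5748 and 5745 with all libraries. The number of loci tested in that fit is not given here, so these counts cannot be read as shares.

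None of the 4 sucrose-phosphate synthase and 3 sucrose-phosphatase genes tested, which carry out the last steps of sucrose synthesis, passed the test. Of all tested loci 55.9% were called in either direction. The synthase gene SPS1 was not among those tested, because it was dropped over its symbol. The smallest p of each list belonged to SPS8 (LOC_Os08g20660, log2 0.44, edgeR adjusted p = 0.102) and SPP3 (LOC_Os05g05270, log2 0.80, edgeR adjusted p = 0.0701). The other 2 sucrose-phosphatase genes, SPP1 and SPP2, had values of the opposite sign, at −0.42 and −0.43 (edgeR adjusted p = 0.0949 and 0.108), and the median of that list was −0.42. SPS8 and SPP3 were called higher with library totals alone, at 1.27 and 1.62, SPS8 also without PM replicate 3 (0.60) and SPP3 also without AM replicate 3 (1.05) and with limma-voom (0.89). Sucrose synthases, which split sucrose with UDP, were the listed genes called higher in PM. They were 3 of 4 tested, against 28% of all tested loci called higher. SUS1 was at log2 2.96 and SUS2 at 0.66, while SUS6, at −0.67, did not pass (edgeR adjusted p = 0.25). SUS4 (LOC_Os03g22120) had 32.6, 28.1 and 50.5 CPM in AM replicates 1, 2 and 3 and 512, 505 and 404 CPM in PM replicates 1, 2 and 3. The groups were far apart, with a log2 fold change of 3.68 (SE 0.27, edgeR adjusted p = 1.14e-05).

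Of 2 tested genes each, the exporters, the cell-wall invertases and the vacuolar invertases had 1 member lower in PM and 1 that did not pass. Across all tested loci 28% were called lower in PM, and 1 call in 2 genes cannot be set apart from that share. SWEET13 (LOC_Os12g29220), an exporter that lets sucrose leave cells passively, had 18.1, 17.7 and 75.6 CPM in AM replicates 1, 2 and 3 and 5.19, 3.22 and 8.73 CPM in PM replicates 1, 2 and 3. AM replicate 3 again stood far above the rest, as for SUT1. The SWEET13 log2 fold change was −2.67 (SE 0.62, edgeR adjusted p = 0.00609), and −1.62 without AM replicate 3, where it was still called (edgeR adjusted p = 0.00561). SWEET14 (LOC_Os11g31190) was at −0.57 (edgeR adjusted p = 0.208), and at 0.24 with library totals alone; it was called without PM replicate 3 (−0.99). The other 3 listed SWEET genes had too few reads to be tested.

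CIN1 (LOC_Os02g33110), a cell-wall invertase that splits sucrose outside the cell, fell from 60.5 ± 20.4 to 11.3 ± 0.454 CPM (SD, n = 3; log2 −2.41, edgeR adjusted p = 8.19e-05). INV3 (LOC_Os02g01590), a vacuolar invertase, fell from 27.6 ± 17.8 to 0.961 ± 0.425 CPM (SD, n = 3; log2 −4.94, edgeR adjusted p = 0.000188), at −4.37 without AM replicate 3. The other tested invertase genes did not pass, with CIN4 at 0.00 and INV2 at −0.45 (edgeR adjusted p = 0.996 and 0.0798). The tonoplast transporter gene TMT1 (LOC_Os10g39440) was at 0.50 (edgeR adjusted p = 0.0999) and was called at 0.81 without AM replicate 3 and at 1.33 with library totals. TMT2, the other tested member of that list, was at 0.11 and did not pass either (edgeR adjusted p = 0.821). Of the 4 plasma membrane proton pump genes tested, OSA1 (LOC_Os03g48310) fell from 9.81 ± 1.94 to 2.26 ± 0.618 CPM (SD, n = 3; log2 −2.14, edgeR adjusted p = 0.000329), and the other 3 did not pass. That is 1 of 4 pump genes, near the 28% of all tested loci called lower.

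**Figure D4:**
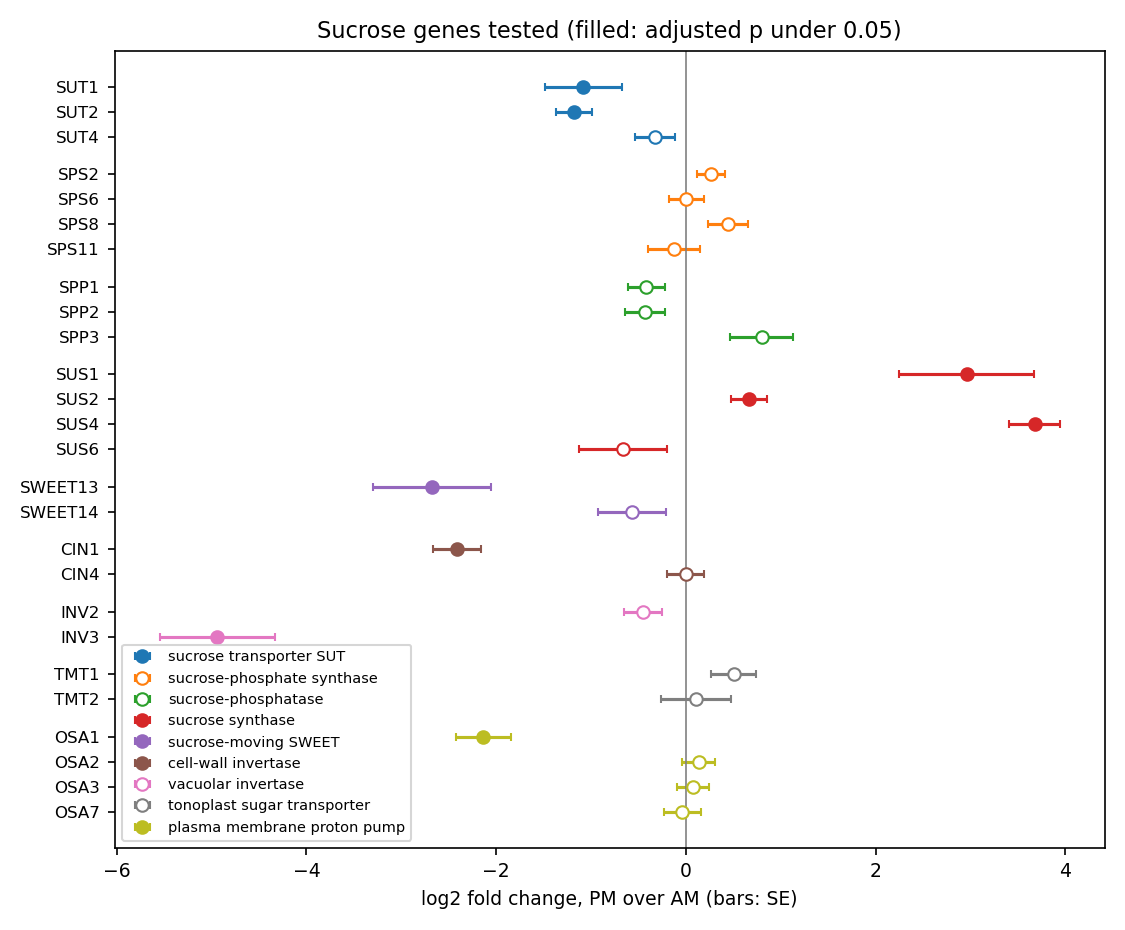
Log2 fold change of PM over AM (horizontal axis, bars are SE) for the 3 SUT genes and the 23 other sucrose genes tested, coloured by group; filled points passed an edgeR adjusted p of 0.05. SUT1 and SUT2 lie near −1.1, INV3 at −4.94 is the lowest and SUS4 at 3.68 the highest of the genes shown.

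Among the 23 other sucrose genes, those most like each SUT gene over the 6 libraries were found by Pearson's r of log2 CPM, given as a description. For SUT1 they were SWEET13 (r = 0.95, or 0.88 without AM replicate 3) and SWEET14 (r = 0.86, or 0.60). For SUT2 they were OSA1 (r = 0.99, or 0.99) and INV3 (r = 0.98, or 0.97). For SUT4 they were SWEET13 (r = 0.75, or 0.30) and OSA1 (r = 0.74, or 0.59). The libraries form 2 groups, so pairs of genes that differ in the same direction between AM and PM tend to have a high r. Values as high were reached by 0.37% of all tested loci for SWEET13 with SUT1, and by 0.501% for OSA1 with SUT2. For the other 4 pairs the share ran from 1.14% (INV3 with SUT2) to 4.13% (OSA1 with SUT4), and each pair is the best or second best of 23 genes. The likeness of SWEET13 to SUT4 rested on AM replicate 3.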

How the data were processed

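RNA of 3 AM and 3 PM libraries was counted per gene. The authors deposited raw counts per MSU locus. The submitters' processing notes name Trimmomatic 0.33, STAR and HTSeq 0.6.1. Genome build, annotation, strand setting and STAR version were not given in the sources used here. Hence reads of overlapping or antisense genes cannot be told apart. In the RefSeq table of assembly ASM3414082v1, none of the 4 SUT genes found by name overlaps another gene. That table also lists SUT2 as a synonym of the SUT4 gene, so genes are named by locus here. No coordinates or sequences are printed, and levels are not compared between genes, because gene lengths of the counted models were not used here. Of all records, 39.1% to 56.1% per library were aligned to more than 1 place, 2.92% to 6.26% lay on no feature and 0.112% to 0.171% were ambiguous. Lines with these totals were left out of library sizes and of all tests.

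The test of PM against AM was the quasi-likelihood F test of edgeR 4.0.16 in R 4.3.3, with TMM factors. A minimum count of 10 in filterByExpr kept 20548 loci, and p-values were adjusted over them by Benjamini-Hochberg, with a threshold of 0.05. The script was tested on simulated data in which few loci changed, equally many up and down. That test does not cover the choice of scaling, on which the SUT calls depend. SEs come from the coefficient and its F statistic, and log2 CPM for correlations used a prior count of 2. Alternatives were RLE and upper-quartile factors, library totals only, a filter at a mean of 5 CPM, no filter, DESeq2 1.42.0, limma-voom (limma 3.58.1), a replicate block and leaving out each library. Each pair of replicates varied beyond sampling noise (chi-square of 19.9 to 142 per degree of freedom), so none was merged.

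The members and lists were chosen with earlier results of these data known. Of 32 other sucrose genes, SPS1 was dropped because the RefSeq table has that symbol on another chromosome only; 21 matched by symbol and chromosome and 10 rest on the list alone. By rule the text names all SUT genes and, per list, the called member with the smallest p in each direction (where no member was called, the one of smallest p), plus the 2 genes most like each SUT gene. Outside this rule, SPP1, SPP2, SUS1, SUS2, SUS6, CIN4, INV2 and TMT2 are named to show other tested members of their lists. Genes were named for AM replicate 3 after the values were seen, among them TMT2, SUS1 and SPS6.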

Additional observations from a re-analysis of the deposited data

How the results depend on the processing

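Leaving out each library in turn gave log2 fold changes from −1.33 to −0.41 for SUT1, from −1.28 to −1.01 for SUT2 and from −0.46 to −0.14 for SUT4. It gave 4847 to 6061 loci higher and 4821 to 5800 lower in PM, and 2 to 6 other sucrose genes higher and 4 to 6 lower. SUT1 was not called with upper-quartile factors (−1.06), library totals only (−0.28), a mean of at least 5 CPM (−1.10) or limma-voom (−0.92), and SUT2 was not called with library totals only (−0.35). With library totals only, SUT4 stood at 0.50 and SWEET14 at 0.24, both with changed sign, 11200 loci were higher and 2764 lower, and 13 other sucrose genes were higher. The mean SUT4 read share ran from 9.98% to 11.8% in AM and from 16.3% to 17.9% in PM with any 1 library left out, the SUT1 share from 32.9% to 41.5% and from 35.5% to 43.7%, and the SUT2 share from 48.5% to 55.3% and from 39.5% to 46.6%. For equal replicate numbers, the deviations of the libraries from their group means correlated at −0.06, −0.27 and 0.10. For unequal numbers the values ran from −0.41 to 0.39. With 3 libraries a group, these correlations cannot show whether equal numbers mark a shared day or batch. With the replicate block SUT1 stood at −0.95 (edgeR adjusted p = 0.0249), SUT2 at −1.17 and SUT4 at −0.31, and 5077 loci were higher and 5060 lower. Shares divided by coding length were not run, since no lengths of the counted models were used here. Depth limits SUT3 and SUT5, at 0 to 3 counts a library.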

Other observations

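AM replicate 3 held more transcripts of several sugar genes than the other AM libraries, a comparison made after the values had been seen. It was the highest AM library at 14 of the 23 other sucrose genes tested (60.9%), against 37.9% of all tested loci. TMT2 (LOC_Os02g13560), which like TMT1 belongs to the tonoplast sugar transporters, had 144 CPM there and 50.3 and 56.9 CPM in AM replicates 1 and 2, and 88.2, 90.3 and 92.5 CPM in PM replicates 1, 2 and 3. SUS1 (LOC_Os03g28330) had 6.34 CPM in AM replicate 3, against 0.692 and 1.02 CPM in AM replicates 1 and 2, and 17.9 to 27.6 CPM in PM. CIN1 went the other way, with 39.96 CPM in AM replicate 3 and 60.8 and 80.7 CPM in AM replicates 1 and 2. AM replicate 3 was also the lowest AM library for SPS6, SPP2 and INV2. Across all tested loci it was the lowest AM library at 37.2%, nearly as often as the highest. The root marker HKT2;1 (LOC_Os06g48810) had 15.1 CPM in AM replicate 3 against 2.88 and 4.25 CPM in AM replicates 1 and 2, while LSI1 (LOC_Os02g51110) had 16.0 CPM against 22.0 and 28.3 CPM. The part of any of these in the SUT1 value of AM replicate 3 was not tested.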
